A study of Mus musculus with 24 samples.

Results

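The genes described here are those of the major histocompatibility complex (MHC) and of antigen processing in the mouse. They comprise the 34 protein-coding genes of the annotation whose symbols start with H2- and 13 genes listed by name: B2m, Tap1, Tap2, Tapbp, Psmb8, Psmb9, Psmb10, Psme1, Psme2, Cd74, Ciita, Nlrc5 and Cd1d1. Together they are 47 of 21951 protein-coding genes, and 39 of them lie on chromosome 17. They were sorted by role into 2 class Ia genes, 23 class Ib genes (Cd1d1 included), 4 genes of peptide loading, 5 proteasome genes, 2 regulators and 10 class II genes, and 1 gene, H2-Ke6, encodes an enzyme and no MHC molecule.

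MHC class I molecules pair a heavy chain with beta-2 microglobulin and carry peptides that the immunoproteasome cuts and the Tap transporter brings into the endoplasmic reticulum, so that nearly every cell displays a sample of its own proteins. Class II molecules are made mainly by macrophages, dendritic cells and B cells and carry peptides from ingested material, which Cd74 and the H2-DM proteins help to load. Nlrc5 is the known transactivator of class I genes and Ciita that of class II genes, and Cd1d1 encodes the lipid-presenting molecule that invariant natural killer T (iNKT) cells recognise.

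LiNKT cells are liver iNKT cells, sorted as live cells with intermediate staining for TCRβ, a T cell receptor chain, and binding of an αGalCer/CD1d tetramer. They came from NOD mice that were untreated or had received nanoparticles coated with αGalCer/CD1d (αGalCer/CD1d-NPs). The nanoparticles were given at 20 µg per dose, 2 doses a week for 5 weeks. NOD is an inbred strain that develops autoimmune diabetes, and αGalCer is a glycolipid antigen of iNKT cells. SmartSeq2 libraries of single cells came from 3 male mice per group aged 13 to 15 weeks, bisulfite sequencing from 7 untreated female mice of 17 weeks and 4 treated mice of 16 weeks, and the multiome from 5 untreated and 4 treated male mice of 13 to 15 weeks. The study describes replicates for bisulfite sequencing, but the mice and replicates within a group are not told apart in the tables, which hold a single sample or level per group and assay. No difference between treated and untreated mice could therefore be checked against replicates here, no test between them was made, and the q-values given with the methylation regions are those of the deposited table.

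The SmartSeq2 counts held 172559865 reads in 273 untreated cells and 149084200 reads in 251 treated cells, with medians of 635257 and 599896 reads per cell. Counts were summed over cells and divided by the total of the group, in counts per 1000000 counts (CPM). Intervals are exact 95% Poisson or Clopper-Pearson intervals, and they cover counting error only. SmartSeq2 has no molecular identifiers, so that copies of 1 molecule count as separate reads and the Poisson intervals of reads are too narrow. For a gene without reads, a limit of 3 cells is used in place of an interval, which is 1.10% of the untreated and 1.20% of the treated cells, and it limits the cells with a read and not the cells that express the gene.

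The promoters below are shown because each carries some of the sequence elements by which class I and class II genes are known to be read together. Each is the 250 bases before the RefSeq start in GRCm38.p6 (the C57BL/6J reference, whereas NOD mice carry another MHC haplotype), written 5′ to 3′ on the strand of the gene. Capitals mark the Y box (GATTGG), the core of the X2 box (TGACG), the enhancer A of class I genes (GGGATTCCC) and the interferon-stimulated response element (GAAANNGAA), each searched on both strands. They lie at chr2:122147437-122147686 (plus strand), chr17:34000348-34000597 (minus), chr17:35262844-35263093 (plus), chr17:34187306-34187555 (plus), chr17:34287824-34288073 (minus) and chr17:34305617-34305866 (plus), in the order given.
B2m: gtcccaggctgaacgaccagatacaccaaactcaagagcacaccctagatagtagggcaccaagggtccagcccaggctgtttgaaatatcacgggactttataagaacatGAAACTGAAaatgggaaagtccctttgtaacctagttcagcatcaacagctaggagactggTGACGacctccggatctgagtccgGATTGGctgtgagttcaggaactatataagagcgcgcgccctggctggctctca
H2-K1: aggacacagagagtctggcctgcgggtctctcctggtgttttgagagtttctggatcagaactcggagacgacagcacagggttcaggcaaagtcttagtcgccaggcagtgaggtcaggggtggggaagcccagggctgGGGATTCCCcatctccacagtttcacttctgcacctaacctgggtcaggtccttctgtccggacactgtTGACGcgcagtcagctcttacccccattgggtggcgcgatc
H2-D1: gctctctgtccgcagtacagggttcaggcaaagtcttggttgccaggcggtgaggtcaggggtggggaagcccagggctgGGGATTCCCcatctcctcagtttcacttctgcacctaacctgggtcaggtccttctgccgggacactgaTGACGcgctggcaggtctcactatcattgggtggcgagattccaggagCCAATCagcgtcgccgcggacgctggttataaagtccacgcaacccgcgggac
Tap1: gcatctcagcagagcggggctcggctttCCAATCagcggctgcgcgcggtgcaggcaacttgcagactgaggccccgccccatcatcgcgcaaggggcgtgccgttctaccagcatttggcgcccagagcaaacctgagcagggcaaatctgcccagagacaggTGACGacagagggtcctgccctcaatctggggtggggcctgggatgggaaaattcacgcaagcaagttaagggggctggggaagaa
H2-Aa: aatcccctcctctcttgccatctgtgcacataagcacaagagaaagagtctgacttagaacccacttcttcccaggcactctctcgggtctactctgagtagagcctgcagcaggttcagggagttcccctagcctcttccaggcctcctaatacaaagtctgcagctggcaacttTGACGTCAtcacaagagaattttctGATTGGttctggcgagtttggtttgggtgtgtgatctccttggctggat
H2-Eb1: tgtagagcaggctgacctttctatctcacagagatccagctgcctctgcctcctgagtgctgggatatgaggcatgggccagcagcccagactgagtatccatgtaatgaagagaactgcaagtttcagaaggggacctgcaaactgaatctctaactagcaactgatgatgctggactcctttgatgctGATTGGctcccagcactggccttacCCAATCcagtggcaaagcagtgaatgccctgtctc

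The Y box letters lay in 26 of the 39 genes of the set that have a promoter in the RefSeq table (66.7%), and in 14.6% of all 32851 promoters of the same length. The X2 core lay in 16 (41.0%, against 17.8%). Of the printed promoters, H2-K1 had no match to the Y box letters and H2-Eb1 none to the X2 core. In Tap1 the Y box lay 222 bases before the start, farther from it than the X2 core at 86 bases. In H2-Aa, the alpha chain of the class II molecule I-A, the X2 core was read on both strands as overlapping matches 74 and 71 bases before the start, and the Y box followed 49 bases before the start. Enhancer A was found in H2-D1, H2-K1, H2-Q6 and H2-Q7 (4 genes, 10.3%), against 0.301% of all promoters. The interferon-stimulated element was found in B2m, H2-T22 and H2-T23 (3 genes, 7.69%), a share close to the 7.13% of all promoters. A match is a description of the letters and not of binding.

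Of the 47 genes, 39 had reads in the SmartSeq2 cells and 26 had reads in 5% or more of a group's cells. The 8 without reads were H2-M1, H2-M9, H2-M10.5, H2-M10.6, H2-M11, H2-Eb2, H2-Ob and H2-Ke6. Among the 26 genes, 3 were at least 2-fold higher in treated cells (H2-Q4, Cd74 and H2-Eb1, 11.5%) and 0 were at least 2-fold lower. Of all 4886 genes that met the same minimum, 7.94% were higher and 7.90% lower by that fold. Cd74 and H2-Eb1 met the minimum through the treated cells alone, where they are high, so that their calls follow from the filter, and among the 24 genes of the class I pathway that met it H2-Q4 was the only call. The median log2 ratio of treated over untreated, with a prior of 1 CPM, was 0.13 over the 26 genes, 0.061 over the 24 of the class I pathway and -0.01 over all genes.

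**Figure D1:**
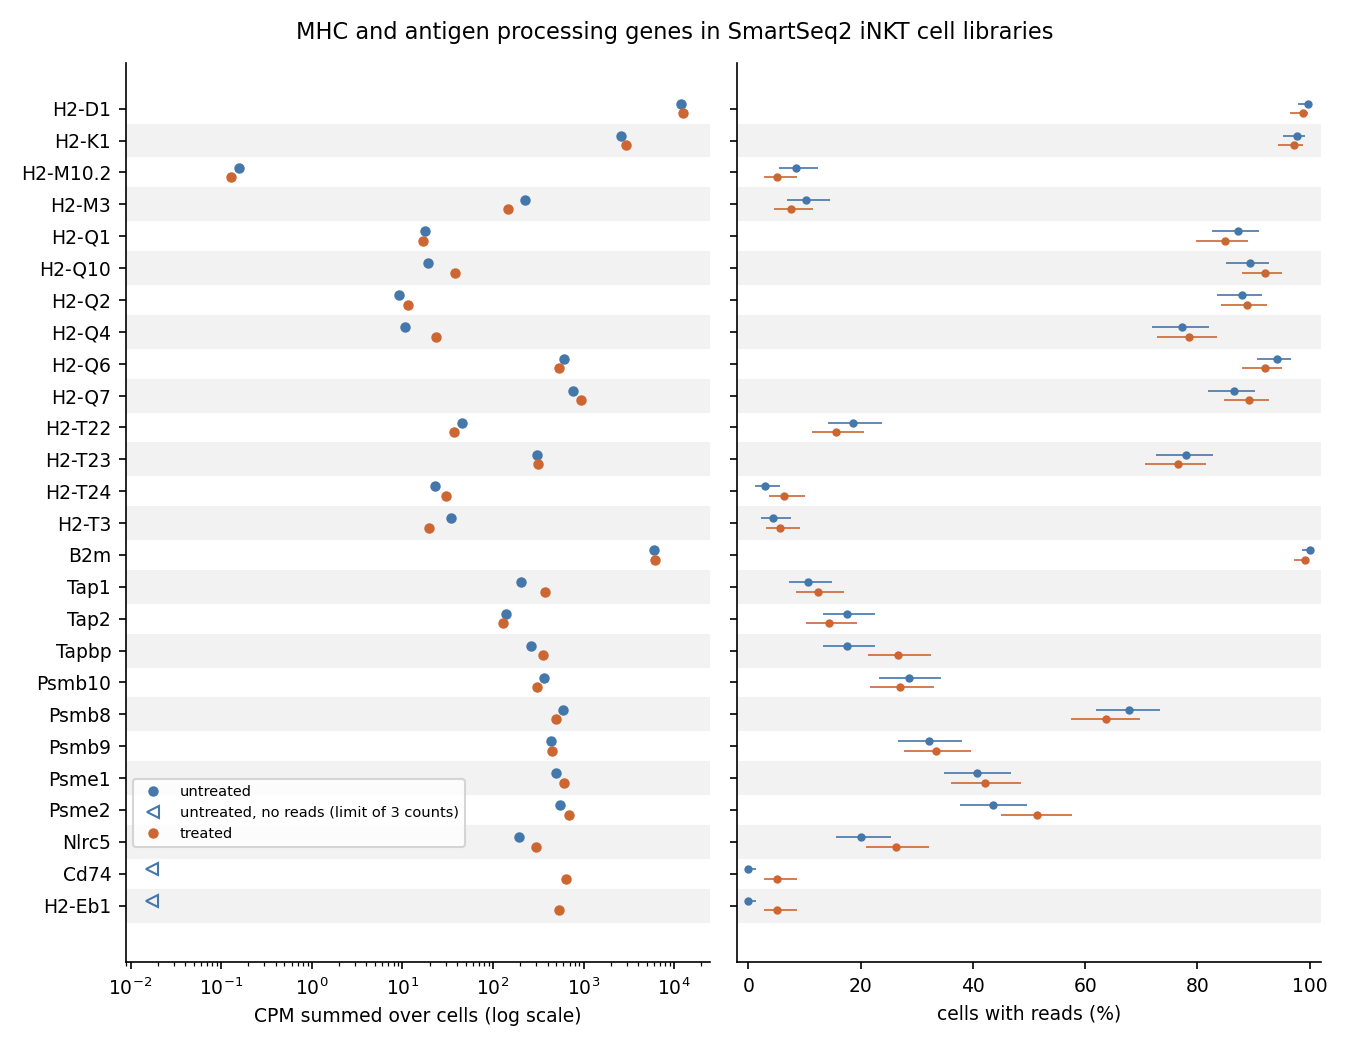
Summed CPM (left, log scale) and percentage of cells with reads (right, bars are exact 95% intervals) for the 26 genes with reads in 5% or more of a group's cells, in 273 untreated (blue) and 251 treated (orange) cells sorted as LiNKT cells; open triangles mark genes without reads, drawn at 3 counts over the group. H2-D1, H2-K1 and B2m have the same order and nearly the same level in both groups, and Cd74 and H2-Eb1 have reads in treated cells alone. Of those reads, 99.1% (Cd74) and 92.8% (H2-Eb1) lie in 11 cells with Lyz2 or C1qa reads and no T cell receptor reads.

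The class Ia genes were among the most abundant RNAs of these cells in both groups. H2-D1, which encodes a classical heavy chain, was at 11811 CPM in untreated cells and 12517 CPM in treated ones and had reads in 99.6% and 98.8% of cells. H2-K1, the other classical heavy chain, was at 2606 and 2934 CPM, in 97.8% and 97.2% of cells. The log2 ratios were 0.08 and 0.17, and among cells of the second sequencing lane, as the cell names give it, that of H2-K1 was -0.01. H2-D1 ranked 3 of all genes by CPM in both groups, while single cells ranged from 0 to 37995 CPM in untreated and from 0 to 34043 CPM in treated mice, with medians of 11183 and 12311 CPM.

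B2m, the light chain shared by class I molecules and CD1d, was at 6030 CPM in untreated cells and 6187 CPM in treated ones, a log2 ratio of 0.04 that was -0.03 in the second lane. It had reads in 100% and 99.2% of cells. Divided by the exonic length of the gene, B2m was the highest of the set, at 7012 and 7194 CPM per kb, followed by H2-D1 at 4580 and 4853 and by H2-K1 at 887 and 999 CPM per kb. This order is one of counted reads. Reads of NOD mice were aligned to a reference with another MHC haplotype, and how far this changes the level of each gene was not tested.

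Among the class Ib genes, whose products have narrower roles than the classical chains, the Qa-2 genes H2-Q7 and H2-Q6 were the most abundant. H2-Q7 was at 766 CPM in untreated cells and 934 CPM in treated ones, and H2-Q6 at 602 and 529 CPM, so that the sums of these neighbours differed in opposite directions. Among cells listed in sub-cluster 2, H2-Q7 was lower in treated mice (709 and 619 CPM) and H2-Q6 nearly equal (566 and 567 CPM). Without treated cells with reads of the macrophage genes Lyz2 or C1qa, H2-Q7 was at 706 CPM there and H2-Q6 at 636 CPM. H2-Q7 was then nearly equal to the untreated value and H2-Q6 above it. In sub-cluster 4 H2-Q7 was at 1086 and 1157 CPM and H2-Q6 at 813 and 642 CPM. H2-T23, which encodes Qa-1, was at 303 and 312 CPM. H2-M3, which presents formylated peptides, was at 225 and 148 CPM (log2 ratio -0.60) in 10.3% and 7.57% of cells. Its direction turned between sub-clusters of the cell list: H2-M3 was at 209 and 401 CPM in sub-cluster 2 and at 314 and 58.6 CPM in sub-cluster 4. H2-T22 was at 45.1 and 37.3 CPM, H2-T3 at 34.3 and 19.7 CPM (33.0 and 30.0 CPM over all cells of the tables), and H2-T24 at 22.9 and 30.4 CPM. The sum over the 23 class Ib genes was 2095 CPM in untreated cells and 2145 CPM in treated ones, a log2 ratio of 0.03. The direction turned between the lanes for H2-Q6, at log2 ratios of 0.24 and -0.94, and for H2-T24, at 1.89 and -1.23.

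H2-Q4 and H2-Q10 had low levels with reads in most cells. H2-Q4 was at 10.6 CPM in untreated cells and 23.6 CPM in treated ones (log2 ratio 1.08), with reads in 77.3% and 78.5% of cells. H2-Q10, known for a secreted product of the liver, was at 19.3 and 37.7 CPM (log2 ratio 0.93), with reads in 89.4% and 92.0% of cells. For both, 1 cell held much of the sum: the top cell of each group held 36.7% and 20.4% of the H2-Q4 reads and 35.7% and 28.4% of the H2-Q10 reads. Without those cells, a setting chosen after seeing the data, the log2 ratios were 1.36 and 1.06. The median over cells differed little for H2-Q4, at 4.14 and 4.83 CPM, and among the cells listed in sub-cluster 2 H2-Q4 was lower in treated mice, at 10.5 and 6.34 CPM, while in sub-cluster 4 it was higher, at 12.0 and 23.1 CPM.

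These genes resemble one another in sequence, and reads could be split between them by the counting. Of the 50-base stretches of their transcripts, 53.5% in H2-T22, 36.4% in H2-Q4, 35.0% in H2-Q6, 26.5% in H2-Q7 and 19.1% in H2-Q10 also occur in transcripts of other genes, against 12.8% in H2-D1, 9.63% in H2-K1 and 0 in B2m. The values of H2-T22 and of these H2-Q genes are therefore uncertain gene by gene. H2-T3 (0.926%) and H2-T24 (3.17%) share less than H2-K1. Outside the H2-Q and H2-T genes, Psme2 (28.3%), H2-DMb2 (25.9%), Tapbp (23.2%) and H2-DMb1 (22.7%) share more than H2-Q10, so that the same limit holds for them. H2-DMb1 and H2-DMb2 share mainly with each other. H2-K2, a transcribed pseudogene outside the set, was counted at 249 and 306 CPM. In H2-Ke6, which had no reads, 70.5% of the stretches also occur in Gm20427, and whether its 0 follows from the counting was not tested.

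Cd1d1, which encodes the molecule that presents αGalCer, was at 38.7 CPM in untreated cells and 35.7 CPM in treated ones. It had reads in 1.83% and 1.59% of cells, and 1 cell held 41.8% and 39.5% of its reads. Its log2 ratio of -0.11 was -1.20 in the first lane and 1.73 in the second, and 0.033 as a mean over cells, so that no direction can be given for Cd1d1. H2-M2 was at 0.029 and 9.46 CPM, where 1 treated cell with Lyz2 reads held 99.7% of the treated reads. The H2-M10 genes and H2-M5 were between 0 and 0.156 CPM in both groups.

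Genes of peptide loading differed from one another. Tap1, a subunit of the peptide transporter, was at 206 CPM in untreated cells and 372 CPM in treated ones (log2 ratio 0.85), while Tap2, the partner subunit, was at 139 and 129 CPM. The share of cells with Tap1 reads was 10.6% and 12.4%, and the Tap1 log2 ratio was 1.34 in the first lane and 0.26 in the second. Tapbp, which encodes tapasin, the bridge between Tap and class I chains, was at 261 and 360 CPM (log2 ratio 0.46), with reads in 17.6% (13.3 to 22.6) and 26.7% (21.3 to 32.6) of cells. Those intervals overlap, and the share was higher in treated cells in both lanes. With every cell thinned to 100000 reads, which left 270 and 248 cells and left out 3 of each group, the shares were 16.7% and 23.8% for Tapbp and 9.63% and 11.7% for Tap1.

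Proteasome genes were close in both groups. The immunoproteasome subunits were slightly lower or equal in treated cells: Psmb8 was at 589 and 492 CPM, Psmb10 at 365 and 303 CPM (log2 ratio -0.27, and -0.88 in the second lane) and Psmb9 at 442 and 445 CPM. The activator subunits, which open the proteasome gate, were slightly higher: Psme1 was at 500 and 603 CPM, and Psme2 at 549 and 697 CPM with reads in 43.6% and 51.4% of cells (43.3% and 50.4% of the thinned cells). Summed over the 5 genes, the level was 2445 and 2539 CPM.

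Nlrc5, the class I transactivator, was at 194 CPM in untreated cells and 300 CPM in treated ones (log2 ratio 0.63). It had reads in 20.1% (15.6 to 25.4) and 26.3% (21.0 to 32.2) of cells, intervals that overlap, and in 19.3% and 24.6% of the thinned cells. The log2 ratio was 1.20 in the first lane and -0.31 in the second, so that the direction for Nlrc5 was that of 1 lane. Ciita, the class II transactivator, had reads in 2 untreated and 4 treated cells, at 8.16 and 5.88 CPM.

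Summed over the 35 genes of the class I pathway (class Ia, class Ib, peptide loading, proteasome and Nlrc5), the level was 25787 CPM in untreated cells and 27482 CPM in treated ones, or 2.58% and 2.75% of all reads, a log2 ratio of 0.09. Among cells of the second lane alone the log2 ratio was -0.02.

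Class II genes stood apart. H2-Aa, H2-Ab1, H2-Eb1 (chains of I-A and I-E) and Cd74, the invariant chain, had no reads in 273 untreated cells. In treated cells they were at 580, 1041, 538 and 645 CPM. These sums came from 10, 9, 13 and 13 treated cells, and without the top cell of each gene, a setting chosen after seeing the data, they were 436, 728, 344 and 509 CPM. No fold is given, since a single cell with these RNAs holds many reads and the untreated cells had 0. H2-DMa, a peptide-exchange factor, was at 16.1 CPM in untreated cells and 113 CPM in treated ones, and its partners H2-DMb1 and H2-DMb2 were at 0 in untreated and at 17.6 and 8.53 CPM in treated cells. H2-Oa had 743 reads, all in 1 treated cell. Together the 10 class II genes were at 16.1 and 2948 CPM, a log2 ratio of 7.43.

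Those class II reads lay in few cells. Reads of H2-Aa, H2-Ab1, H2-Eb1 or Cd74 were found in 19 of 251 treated cells (7.57%). Of the treated cells, 11 (4.38%) had reads of Lyz2 or C1qa, macrophage genes, and these 11 cells held 97.7% of the class II reads (429383 of 439503). All H2-Aa and all H2-Ab1 reads lay in them, with 92.8% of the H2-Eb1 reads and 99.1% of the Cd74 reads. Their summed levels of the 4 chains ranged from 199 to 150126 CPM per cell, with a median of 46962 CPM, and 10 of the 11 had H2-Aa reads.

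Reads of Cd3e, of Trac and of the T cell receptor genes were at 0 in each of the 11 cells. T cell receptor reads were found in 238 of the 251 treated cells (94.8%) and in 273 of 273 untreated cells. Other T cell genes were not looked up in the 11 cells. Lyz2 was read in 11 of them, Csf1r, a growth factor receptor of macrophages, in 9, and C1qa in 2, while Ciita was read in 4. All 11 were listed in sub-cluster 2, with 6 in the first lane and 5 in the second.

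**Figure D2:**
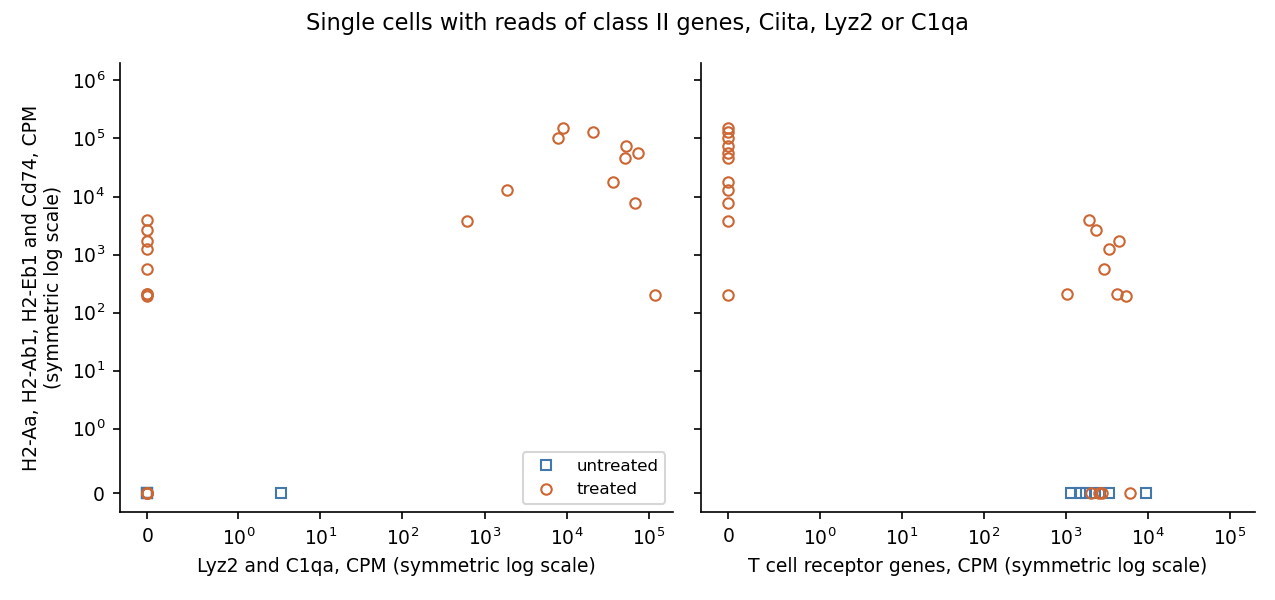
Each point is 1 listed cell with reads of a class II gene, Ciita, Lyz2 or C1qa, with the summed CPM of H2-Aa, H2-Ab1, H2-Eb1 and Cd74 against the CPM of Lyz2 and C1qa (left) and of T cell receptor genes (right), all on symmetric log scales that hold 0. Treated cells (orange) with Lyz2 or C1qa reads reach 150126 CPM of the class II chains and have no T cell receptor reads, and untreated cells (blue) lie at 0.

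The other class II reads were few and lay in cells with T cell receptor reads. In 8 treated cells without Lyz2 or C1qa reads, 118 to 2225 reads fell on H2-Eb1 (6 cells) or Cd74 (2 cells), and all 8 had T cell receptor reads. H2-DMa was read in 3 further treated cells and in 4 untreated cells of this kind, at 1015 to 1313 and 22 to 1244 reads. In untreated cells no Lyz2 read was found, and 1 cell had 1 read of C1qa. Without the cells with Lyz2 or C1qa reads, the class II log2 ratio was 2.07 and that of the class I pathway 0.11.

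H2-D1, H2-K1 and B2m were lower in the 11 cells than in the other 240 treated cells. H2-D1 was at 8191 CPM in them and 12702 CPM in the others, B2m at 3947 and 6283 CPM and H2-K1 at 2043 and 2972 CPM. Nlrc5 was read in 0 of the 11 cells and in 27.5% of the 240. H2-M2 went the other way, at 229 and 0.028 CPM. Since cells were chosen by Lyz2 and C1qa alone, these values compare kinds of cells within 1 sample and not treatments.

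The list of 9 macrophage markers summed to 0.017 CPM in untreated cells and 1944 CPM in treated ones, with 3 and 6 of the 9 read and Clec4f, Marco and Vsig4 at 0 in both groups. Lyz2, by which the cells were chosen, made up 1688 CPM of the treated sum. C1qb, C1qc and Adgre1 were each read in 1 treated cell, so that most of the list was not read in most of the 11 cells. The other lists were at 21.5 and 6.91 CPM (dendritic cell, all of it Xcr1 in untreated cells), 0.012 and 0 CPM (B cell), 0 and 82.3 CPM (hepatocyte), 0 and 5.86 CPM (endothelial) and 7889 and 7618 CPM (iNKT and T cell, 6 of 6 read). How those cells came to be in the treated sample was not tested.

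The sub-clusters, taken from the cell list of the study, allowed the same genes to be compared within smaller sets of cells. The class I pathway was at 25717 CPM in sub-cluster 2 of untreated mice (228 cells) and at 22826 CPM in that of treated mice (61 cells), or 24044 CPM in the 50 cells without Lyz2 or C1qa reads. In sub-cluster 4 it was at 26813 CPM (43 cells) and 29323 CPM (133 cells), and in sub-cluster 5, shown for treated mice, at 27706 CPM (57 cells). The direction thus differed between sub-clusters 2 and 4, without a test. Class II genes were at 13215 CPM in treated sub-cluster 2, at 244 CPM there without the cells with Lyz2 or C1qa reads, and at 43.6 and 3.79 CPM in treated sub-clusters 4 and 5. In untreated mice they were at 4.20 CPM in sub-cluster 2 and at 76.7 CPM in sub-cluster 4, the latter above the treated value. All of that 76.7 CPM was H2-DMa, which was read in 4.65% of those 43 cells and was at 0 in treated sub-cluster 4. The sum of H2-Aa, H2-Ab1, H2-Eb1 and Cd74 went the other way there, at 0 in untreated and 42.5 CPM in treated mice. Nlrc5 was at 170 and 377 CPM in sub-cluster 2 but at 323 and 239 CPM in sub-cluster 4. Psme2 went the other way, at 566 and 426 CPM in sub-cluster 2 and 428 and 795 CPM in sub-cluster 4, as did Psme1 (521 and 351, 414 and 691 CPM) and Tap2 (159 and 121, 47.5 and 140 CPM). Without cells with Lyz2 or C1qa reads, treated sub-cluster 2 was at 442 CPM for Psme2, 324 CPM for Psme1 and 149 CPM for Tap2. The Tap2 value of untreated sub-cluster 4 rests on reads in 11.6% of 43 cells.

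**Figure D3:**
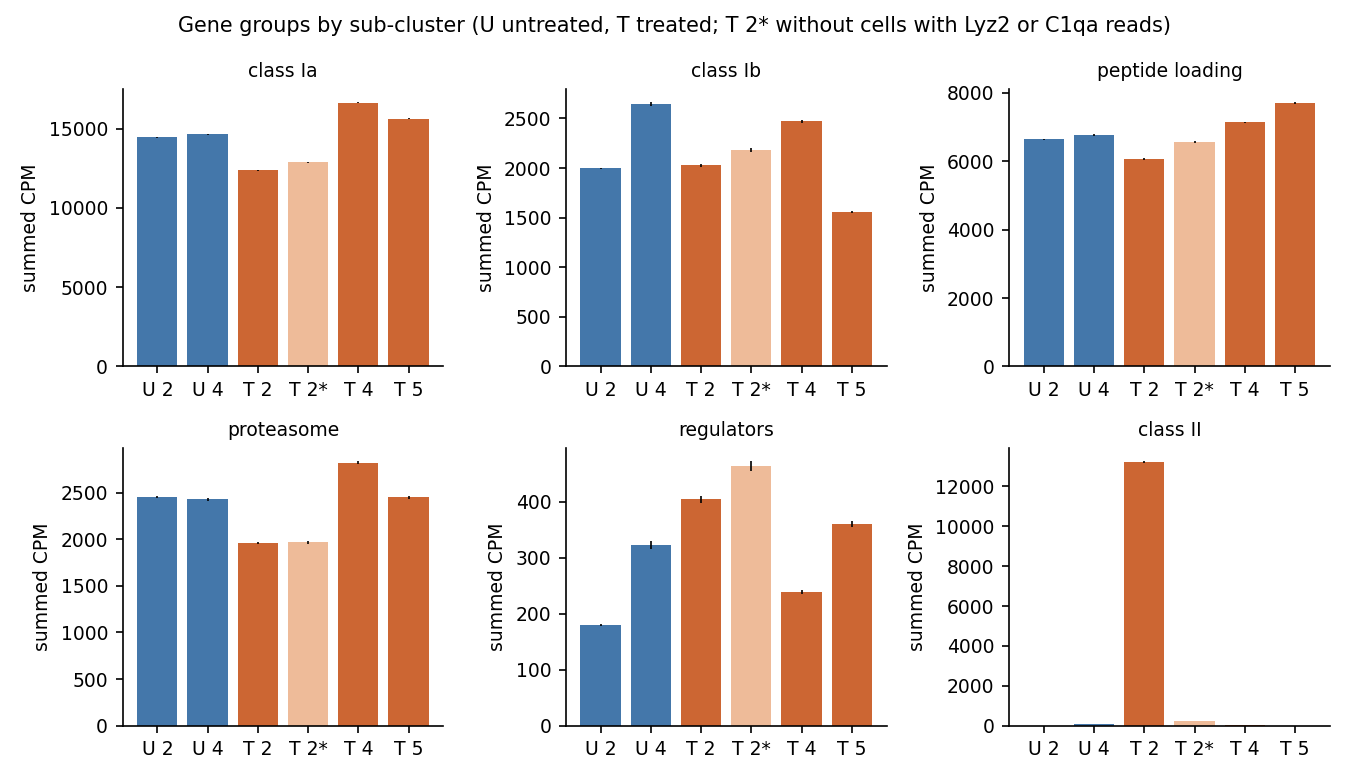
Summed CPM of each group of genes (bars from 0, with exact 95% Poisson intervals of the reads) in the sub-clusters of untreated (U, blue) and treated (T, orange) cells; the pale bar is treated sub-cluster 2 without cells with Lyz2 or C1qa reads. The class II bar of 13215 CPM in treated sub-cluster 2 shrinks to 244 CPM without those cells.

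Of 25 other genes of antigen processing, 14 had reads in 5% or more of a group's cells, with a median log2 ratio of 0.10. Of these, 2 were at least 2-fold higher in treated cells, Ctss, a lysosomal protease that trims Cd74 (72.9 and 321 CPM), and Ifi30, a lysosomal reductase (18.7 and 44.3 CPM), and 1 was lower, Erap1, which trims class I peptides (154 and 63.8 CPM), against the 7.94% higher and 7.90% lower of all genes. Ifi30 met the minimum through treated cells alone (reads in 2.93% of untreated and 5.18% of treated cells). Erap1 met it through untreated cells alone (5.13% and 2.79%). Both calls follow from the filter, so that these counts are no result beside the shares of all genes. The 11 cells with Lyz2 or C1qa reads held 66.6% of the treated Ctss reads. In cells without such reads Ctss was at 73.0 CPM in untreated and 112 CPM in treated mice.

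DNA methylation was read from regions that differed between the groups, deposited with the mean level of all cytosines of a group. Of 2873 regions, 1983 were lower in treated mice. In the gene body or within 2 kb of the start, 3 of the 47 genes had such regions (Nlrc5, Tapbp and H2-Q7), 4 regions in all and each lower in treated mice, and 0 had a higher one. Of all 21938 protein-coding genes on the chromosomes, 4.20% had a region of lower and 2.63% one of higher methylation. Lower methylation in all cells and more cells of an unmethylated type cannot be told apart in such group levels, and read depth was not used here because the tables hold only levels.

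The regions at Nlrc5 and H2-Q7 and the one between H2-DMb1 and Psmb9 are printed because the methylation levels refer to their CpGs. Each is a window of 300 bases of the plus strand in GRCm38.p6 with the most CpGs, and capitals mark each CpG. They lie at chr8:94435704-94436003, chr8:94447353-94447652, chr17:35439899-35440198 and chr17:34180006-34180305, in the order given.
Nlrc5 start: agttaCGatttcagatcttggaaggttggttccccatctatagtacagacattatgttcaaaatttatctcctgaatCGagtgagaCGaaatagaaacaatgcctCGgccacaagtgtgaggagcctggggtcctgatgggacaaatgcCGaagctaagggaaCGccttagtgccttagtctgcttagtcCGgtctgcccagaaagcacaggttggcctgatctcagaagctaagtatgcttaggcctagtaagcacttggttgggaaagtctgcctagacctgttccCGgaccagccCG
Nlrc5 intron: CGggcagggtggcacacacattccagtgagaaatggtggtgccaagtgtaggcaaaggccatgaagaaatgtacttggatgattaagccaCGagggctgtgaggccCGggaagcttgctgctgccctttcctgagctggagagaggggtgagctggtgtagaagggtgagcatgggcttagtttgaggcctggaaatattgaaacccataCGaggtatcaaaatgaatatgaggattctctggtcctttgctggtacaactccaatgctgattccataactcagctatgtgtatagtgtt
H2-Q7 exon: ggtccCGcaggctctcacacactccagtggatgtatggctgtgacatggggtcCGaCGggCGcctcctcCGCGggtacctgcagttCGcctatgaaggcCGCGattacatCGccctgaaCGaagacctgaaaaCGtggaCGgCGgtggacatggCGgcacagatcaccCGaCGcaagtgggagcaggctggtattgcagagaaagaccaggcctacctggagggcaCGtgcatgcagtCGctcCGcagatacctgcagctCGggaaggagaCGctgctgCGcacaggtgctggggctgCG
H2-DMb1 to Psmb9: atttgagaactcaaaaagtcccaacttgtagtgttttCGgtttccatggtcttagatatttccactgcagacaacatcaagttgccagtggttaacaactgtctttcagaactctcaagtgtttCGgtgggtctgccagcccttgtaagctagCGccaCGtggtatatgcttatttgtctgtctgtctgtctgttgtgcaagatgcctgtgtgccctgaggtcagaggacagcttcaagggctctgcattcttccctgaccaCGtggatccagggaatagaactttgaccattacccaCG

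The region at the start of Nlrc5 (chr8:94435052-94436395, 1344 bases, 44 CpG cytosines) begins 696 bases past the start of the gene and is intronic, and its first 52 bases overlap an exon of the lincRNA 9330175E14Rik. Its mean level was 0.684 in untreated and 0.337 in treated mice (q = 1.11e-20 in the deposited table), and 44 of 44 cytosines were lower in treated mice. The second region of Nlrc5 (chr8:94447353-94447751, 10 cytosines) lies 12997 bases past the start, also in an intron. Its level was 0.881 and 0.288 (q = 1.59e-05), with all 10 cytosines lower, and its difference ranked 99 of the 1983 regions of lower methylation. Both distances are from the start of the gene in GENCODE. The RefSeq promoters hold none for Nlrc5, so that no other start of Nlrc5 was checked and a change at a promoter in use is not shown.

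H2-Q7 had a region over its coding exon 3 (chr17:35439879-35440198, 49 cytosines), 724 bases past the start, at 0.507 and 0.308 (q = 0.00545) with 48 of 49 cytosines lower. The levels there rest on uniquely mapped reads of a sequence that H2-Q genes partly share, and the reference has another MHC haplotype than NOD mice. The region in the body of Tapbp (chr17:33918626-33918931, 25 cytosines), 2727 bases from the start, also lies in the last exon of Zbtb22, the neighbouring gene, and was at 0.689 and 0.369 (q = 0.00017) with 25 of 25 cytosines lower. RefSeq places the start of Tapbp 3579 bases farther on, at chr17:33919478, past this region. The region then lies upstream of the gene and not in its body, and within the 2 kb of the start that count as its promoter.

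Outside protein-coding genes, 3 regions lay within 50 kb of the start of a gene of the set. The region between H2-DMb1 and Psmb9 (chr17:34179642-34180305, 18 cytosines) lies 7248 bases from the start of Tap1 and 7459 bases from that of Psmb9, and was at 0.796 and 0.285. The region in the lincRNA CR974462.2 (chr17:34104860-34105168, 16 cytosines), 12520 bases from H2-Oa, was at 0.817 and 0.403. For the third (chr17:36068937-36069182), 26190 bases from H2-T22, the deposited region levels were 0.7996 and 0.204, but the mean over its 30 CpG cytosines in the site table was 0.512 and 0.532, so that the lower level of treated mice is not seen in that mean. The region table counts 16 CpGs there, and the means may cover different sites: the 16 cytosines of the plus strand were at 0.836 and 0.729, with 9 lower in treated mice, and the 14 of the minus strand at 0.141 and 0.306.

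**Figure D4:**
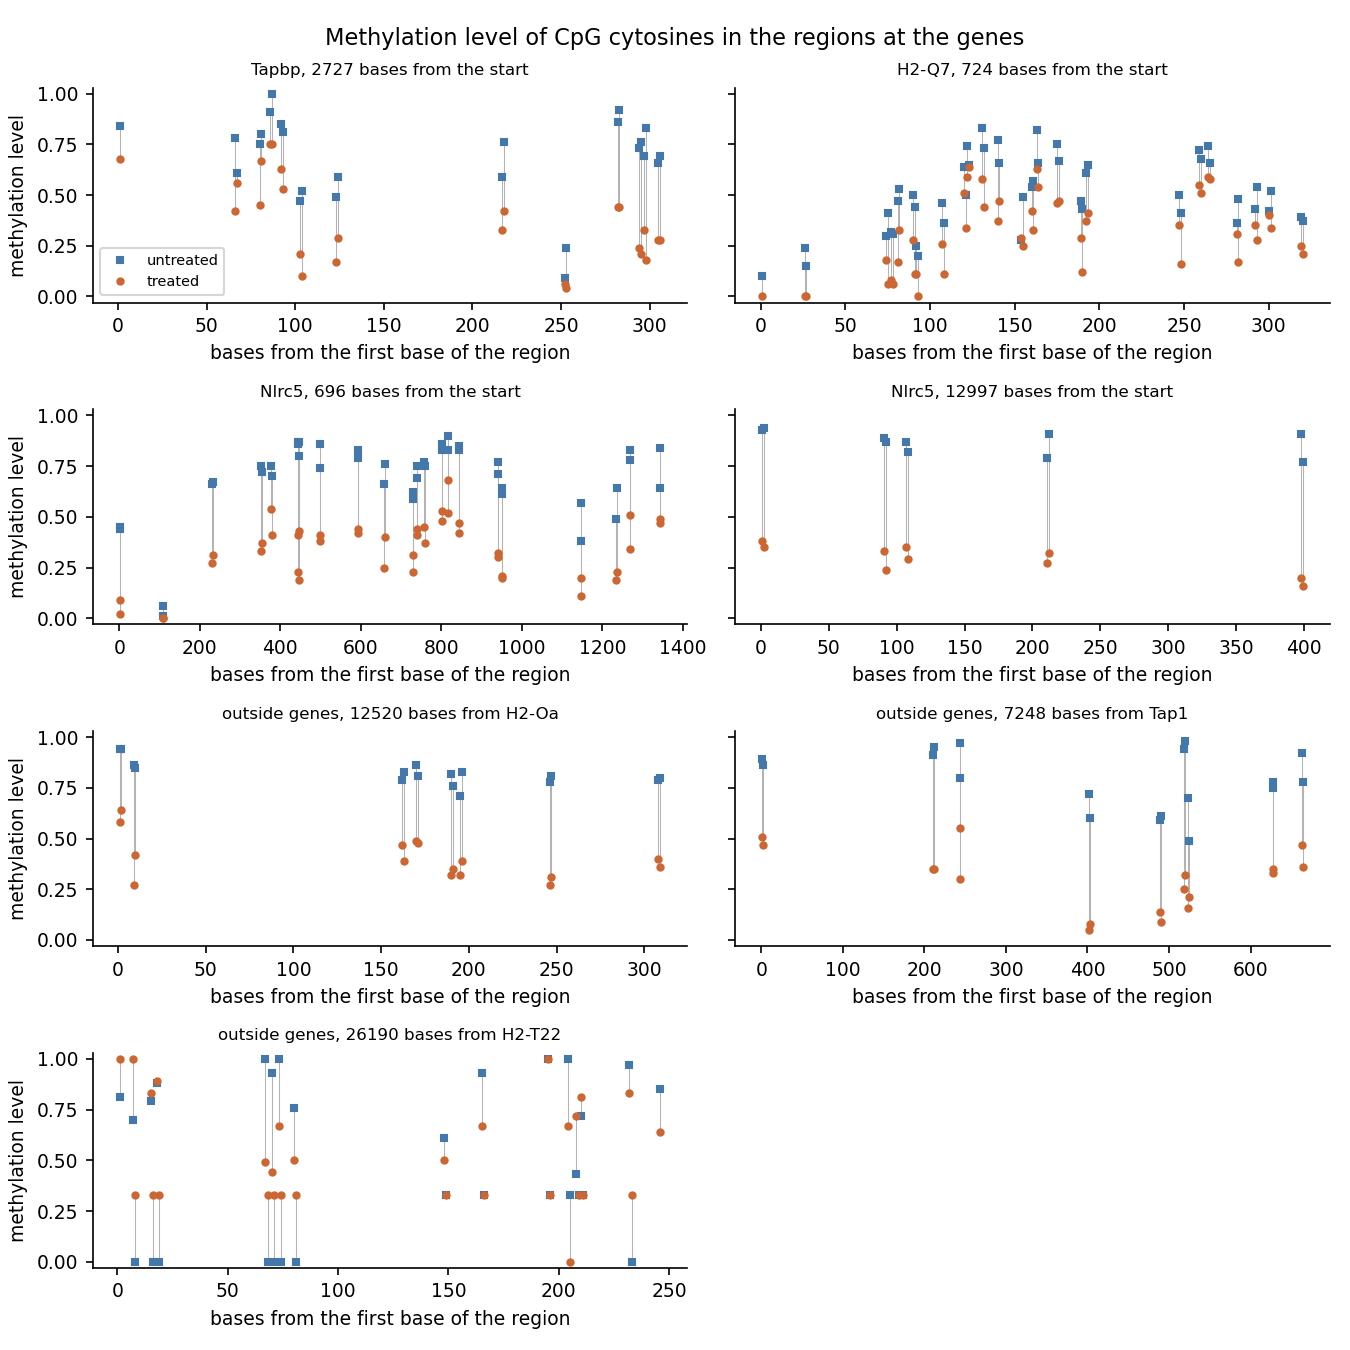
Methylation level (0 to 1) of each CpG cytosine in untreated (blue squares) and treated (orange circles) LiNKT cells, against its distance in bases from the first base of the region, for the 7 regions at or near the genes; grey lines join the values of a cytosine. In the 2 regions of Nlrc5 each cytosine is lower in treated mice, and in the region near H2-T22 the cytosines go both ways.

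Open chromatin was read from the multiome, in which each fragment end marks an insertion of the transposase. Barcodes ended in 1 or 2, and the files do not say which ending is the treated sample, so that the endings were compared without naming them. Barcodes with at least 1000 fragments numbered 8565 and 7237, with 162817764 and 149740716 ends, to which ends were scaled as CPM of ends. Within 2 kb of the start, 40 of the 47 genes had at least 100 ends over both endings. Of these, 4 (10.0%: Cd74, Ciita, H2-DMb1 and H2-Eb2) were at least 1.5-fold higher in ending 2 and 1 (2.50%: H2-M5) was lower, against 12.1% and 2.60% of 16328 promoters. The calls depend on the window: within 500 bases of the start, Cd74, H2-DMb1, H2-Eb2 and Tap2 were higher in ending 2 (4 of 36, 11.1%) and H2-Oa and H2-Ob lower (5.56%), against 9.46% and 2.56% of 13697 promoters. Tap2 was at 34.8 and 43.2 CPM of ends within 2 kb and at 4.43 and 9.92 within 500 bases.

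The promoters of the main class I genes were among the more open ones and nearly equal between the endings. H2-D1 lay above 95.4% and 95.1% of all 21938 protein-coding promoters. B2m had 95.32 and 95.03 CPM of ends, H2-D1 84.6 and 81.6, and H2-K1 67.4 and 67.3 CPM of ends in endings 1 and 2. Summed over the class I pathway the values were 1233 and 1256 CPM of ends, a log2 ratio of 0.03. Psmb9 and Tap1 start 211 bases apart and share most of their window, at 91.8 and 92.1 and at 91.6 and 92.0 CPM of ends.

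Class II promoters were less open, apart from H2-DMa at 125 and 123 CPM of ends, whose window overlaps that of the neighbouring gene Brd2. Around the starts of H2-DMa in RefSeq, which lie 3291 and 5977 bases away, the values were 86.8 and 89.5 and, at the farther one, 5.05 and 5.18 CPM of ends, so that this exception depends on the start used. Brd2 starts 3093 bases from the GENCODE start of H2-DMa, so that the window of the nearer RefSeq start may also cover the start of Brd2. Ends of the 2 genes were not separated. H2-Eb1 was at 11.4 and 14.8, H2-Aa at 9.98 and 8.63, H2-Ab1 at 5.30 and 5.22 and Cd74 at 5.202 and 9.65 CPM of ends. Ends in the promoters of H2-Aa, H2-Ab1 or H2-Eb1 were found in 19.0% and 21.3% of barcodes, and ends at Lyz2 or C1qa in 0.409% and 0.691%. Of the 35 and 50 barcodes with Lyz2 or C1qa ends, 45.7% and 48.0% had ends at those class II genes, but these barcodes also held more fragments, with medians of 14677 and 17621 against 7077 and 8534 in the others. No barcode was removed as a doublet, so that a droplet of more than 1 nucleus counts as 1 barcode in these shares.

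**Figure D5:**
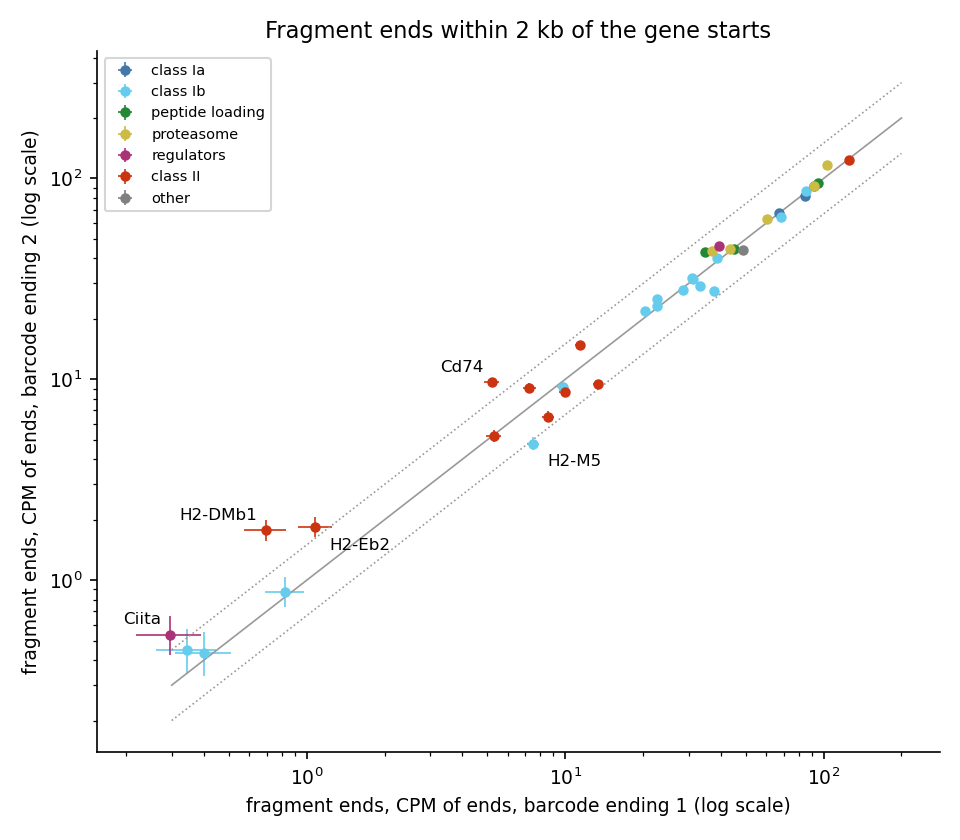
Fragment ends in CPM of ends within 2 kb of the start of each of the 40 genes, in barcodes of ending 1 and ending 2 (both log scales, bars are exact 95% Poisson intervals); the solid line marks equal values and the dotted lines a 1.5-fold difference. Cd74, Ciita, H2-DMb1 and H2-Eb2 lie above the upper dotted line and H2-M5 below the lower one.

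The methylation regions differed more between the endings than the promoters did. The second region of Nlrc5 had 98 ends in ending 1 and 413 in ending 2, 4.58-fold relative to all ends of the ending. The region between H2-DMb1 and Psmb9 had 165 and 844 ends (5.56-fold), the one in CR974462.2 52 and 298 (6.23-fold), the one at the start of Nlrc5 661 and 993 (1.63-fold) and the one at Tapbp 232 and 392 (1.84-fold). H2-Q7 was the exception, at 314 and 261 ends (0.904-fold), and the region near H2-T22 had 0 ends in both. Of all 1384 regions of lower methylation with at least 100 ends, 85.0% were at least 1.5-fold higher in ending 2, so that 5 of 6 at these genes is a share near that of the other regions.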

How the data were processed

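For SmartSeq2 the authors deposited raw counts for each gene in each cell, after alignment to GRCm38 with STAR. Cells in the study's cell list were used, and their sub-clusters taken from it. The fraction values of the bisulfite data were deposited by the authors as methylated over all reads at a cytosine after mapping with BSMAP, and as the mean of each region of the authors' metilene calls, with a q-value (a p-value corrected for multiple tests). The authors' difference of the means was not used. The count of fragments follows the fragments deposited by the authors from Cell Ranger ARC, 1 row each. The sources used here do not give how mice or replicates were combined into a single value.

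Sums over cells were scaled to CPM with Python 3.11.15 with numpy 2.4.6, pandas 2.3.3 and scipy 1.17.1, and log2 ratios took a prior of 1 CPM. Folds were counted over genes with reads in 5% or more of a group's cells. Genes follow GENCODE M21. Regions were paired with gene bodies by 1 base or more, with promoters within 2 kb of the start and, outside protein-coding genes, with starts within 50 kb. The fold counts were run on simulated sums with Poisson noise and planted changes larger than the cut. That checks the counting and cannot test the calls, since the spread between cells was not simulated. The pairing was checked with bedtools 2.31.1. Values are given in full for genes of at least 20 CPM in a group or with a region, and the choice of other named genes followed a look at their values. The other 25 antigen processing genes and the marker lists, like the genes themselves, were chosen with earlier results of these data known. The samples of ChIP-seq, of bulk ATAC-seq and of droplet RNA were not analysed here.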

Additional observations from a re-analysis of the deposited data

How the results depend on the processing

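No paired analysis was possible because the tables hold 1 sample or level per group and assay, and no test was run on them here (the q-values are the authors'). The class I pathway log2 ratio of 0.09 was 0.0768 over all cells of the tables, 0.10 as a mean over cells, 0.083 with median of ratios scaling, 0.0721 against a total without mitochondrial and the 10 most abundant genes, 0.13 and -0.018 in the first and second lane, and 0.11 without cells with Lyz2 or C1qa reads. The class II log2 ratio of 7.43 was 7.72, 7.36 and 7.42 under the first 3 of these, 7.13 with a prior of 5 CPM, 7.22 and 7.99 in the lanes, and 2.07 without cells with Lyz2 or C1qa reads. Over all cells of the tables, 98.0% of class II reads lay in cells with Lyz2 or C1qa reads. With promoters taken as 2 kb upstream of the GENCODE start only, 0 regions lay in a promoter in place of 2. The region at Tapbp lies within 2 kb upstream of the RefSeq start, which this count does not use. The promoter log2 ratio of the class I pathway (0.03) was -0.00946 with 500 bases on either side, 0.0362 with 5000 fragments per barcode and 0.0398 relative to all promoter ends, and that of class II (0.01) was -0.0558 with 500 bases and, chosen after seeing the data, 0.0908 without H2-DMa. At a fold of 1.5, 6 genes (23.1%) were higher and 2 (7.69%) lower in place of 3 and 0, against 14.8% and 16.1% of all genes, and among genes with at least 10 summed counts 10 (27.8%) were higher and 0 lower, against 20.1% and 17.2%. Cd74 and H2-Eb1 are among the 6, and they, H2-M2 and other class II genes are among the 10. Apart from H2-DMa, with 2773 untreated reads in 4 cells, these genes had no or few untreated reads. They passed the minimum through treated cells, so that these shares are no result. The causes were not tested. The single sample per group, the reads without molecular identifiers and the unknown depth of the methylation levels limit every value.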
